A study of Mus musculus with 12 samples.

Results

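The circadian clock genes described here were Per1, Per2, Per3, Cry1, Cry2, Clock, Nr1d1, Nr1d2, Dbp and Tef, a set of 10 genes chosen by name as parts of the molecular clock and its direct outputs. All 10 were found by symbol among the 55414 gene records of the deposited count table. The data were RNA-seq libraries of CD4+ T cells purified from the spleen of wild-type (WT) male BALB/c mice aged 18 weeks, either healthy controls (CTL) or mice with ligature-induced periodontitis (LIP), in which a silk thread had been tied around the upper molars for 14 days. On day 0 the cells were uncultured, and on day 2 they had been kept for 2 days in culture under IL-2 and antibodies to TCRbeta and CD28, a stimulus that drives T cells into division. Each of the 4 groups had 3 libraries, named here by group and by the number in the sample title (CTL 88, 89 and 94 and LIP 92, 93 and 94 on day 0, CTL 92, 93 and 97 and LIP 90, 96 and 97 on day 2). Whether each library came from a separate mouse is not given in the sources used here, so the p-values measure the spread between these libraries. The stimulus was labelled with IL-2 at 10 ng/mL and anti-TCRbeta at 1 µg/mL, whereas the methods of the study give 2.5 ng/mL and 3 µg/mL. The treatment labels of CTL 93 and LIP 96 name anti-CD29, and those of CTL 97 and LIP 97 anti-CD30, in place of anti-CD28. The mice were housed under a 12-h light/dark cycle, and the time of day at which spleens were taken is not given in the sources used here.

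In the mammalian clock, the transcription factors CLOCK and BMAL1 bind E-boxes and switch on the Per and Cry genes, whose proteins return to the nucleus and inhibit CLOCK and BMAL1. A second loop is formed by the nuclear receptors REV-ERBα (Nr1d1) and REV-ERBβ (Nr1d2), which repress Bmal1, and the ROR receptors, which activate it. The factors DBP and TEF, together with HLF, carry the rhythm to output genes through D-box elements, where NFIL3 opposes them. T cells hold such a clock, and the level of each of these transcripts varies over the day.

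The promoter of each member was taken from RefSeq (table build GRCm38.p6) as a window of 300 bases, 250 before and 50 after the start of transcription. There were 13 windows for 9 of the 10 members, all of which were placed in GRCm39 by an exact match, and Per2 had no entry. Both strands were searched for the E-box CACGTG, the variant E-box CACGTT, the D-box TTATGTAA, the ROR element (AA, any base, then TAGGTCA) and the cyclic AMP response element TGACGTCA. The 250 bases before the start are printed for the members whose window held a match to the motif of a clock factor and whose transcript is among the most discussed below, with the matching bases in capitals. The reference is that of the C57BL/6J strain, whereas the mice were BALB/c.
Per1, E-box, chr11:68989525-68989774, plus strand: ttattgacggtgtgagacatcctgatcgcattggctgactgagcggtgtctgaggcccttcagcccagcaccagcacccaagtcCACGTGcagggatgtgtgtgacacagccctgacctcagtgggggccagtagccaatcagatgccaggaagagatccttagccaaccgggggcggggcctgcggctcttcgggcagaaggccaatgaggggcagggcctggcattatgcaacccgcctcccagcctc
Cry1, variant E-box then E-box, chr10:85020919-85021168, minus strand: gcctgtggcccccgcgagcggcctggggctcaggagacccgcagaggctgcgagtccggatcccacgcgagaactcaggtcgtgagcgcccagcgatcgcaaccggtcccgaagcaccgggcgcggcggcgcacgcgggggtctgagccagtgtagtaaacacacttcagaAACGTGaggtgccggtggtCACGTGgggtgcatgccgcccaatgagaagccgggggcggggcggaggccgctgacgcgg
Tef, E-box, chr15:81686624-81686873, plus strand: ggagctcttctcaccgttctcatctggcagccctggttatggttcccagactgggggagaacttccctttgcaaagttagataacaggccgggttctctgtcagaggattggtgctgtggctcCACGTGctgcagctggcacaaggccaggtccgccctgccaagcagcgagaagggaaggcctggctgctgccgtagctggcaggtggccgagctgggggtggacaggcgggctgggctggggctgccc
Nr1d1, variant E-box, chr11:98666204-98666453, minus strand: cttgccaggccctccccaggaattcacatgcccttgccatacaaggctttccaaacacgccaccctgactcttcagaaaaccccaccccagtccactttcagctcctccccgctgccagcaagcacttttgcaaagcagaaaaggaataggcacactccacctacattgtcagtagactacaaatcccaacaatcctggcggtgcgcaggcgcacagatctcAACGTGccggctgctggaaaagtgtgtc
Per3, 2 D-boxes, chr4:151129123-151129372, minus strand: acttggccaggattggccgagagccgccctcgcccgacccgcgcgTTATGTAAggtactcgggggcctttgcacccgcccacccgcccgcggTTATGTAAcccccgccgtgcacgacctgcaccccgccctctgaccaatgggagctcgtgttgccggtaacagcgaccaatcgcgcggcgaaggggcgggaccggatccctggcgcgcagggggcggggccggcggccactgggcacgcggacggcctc

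The E-box of Per1 began 166 bases before the start of transcription, that of Cry1 60 bases and that of Tef 127 bases, and a second Tef window held another E-box 138 bases before its own start. Per1 also had 2 windows, and the one not printed held none of the motifs. Each position refers to the start of its own window, which for these genes is 1 of several annotated starts. Variant E-boxes, which read AACGTG on the strand shown, stood 79 bases before the start of Cry1 and 28 bases before that of Nr1d1, and Cry2 held one 166 bases before its start. The D-boxes of Per3 began 205 and 158 bases before its start. No matches in these windows shared a base. E-boxes were thus found in 3 members, variant E-boxes in 3 and D-boxes in 1, and neither of the other motifs was found in a member. Counted by window, 4 of the 13 member windows held an E-box, 3 a variant E-box and 1 a D-box. Of the 32851 windows of all genes, 7.15% held the E-box, 4.68% the variant E-box, 0.938% the D-box, 0.219% the ROR element and 1.79% the cyclic AMP response element. The windows of Dbp, Nr1d2 and Clock held none of these letters.

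The libraries held 6249018 to 7845676 counts on day 0 and 8691699 to 12866718 on day 2. The summed level of 7 CD4 T cell markers was 2249 to 2605 CPM (counts scaled to a common library size) on day 0 and 3140 to 3391 CPM on day 2, and that of the 2 CD8 genes was at most 13.2 CPM in any library. On day 2, LIP 90 stood apart from the other LIP libraries. The chi-square of its counts was 43.5 per gene against LIP 96 and 34.8 against LIP 97, while the other pairs within a group gave 2.82 to 11.9. The summed level of 7 B cell markers on day 2 was 16.8 CPM in CTL 97, 27.7 CPM in LIP 96 and 27.6 CPM in LIP 97, and 1.34 to 4.54 CPM in the other 3 libraries. Pax5, the B cell lineage factor, was at 0 in CTL 92 and LIP 90, and Fcrla was at 0 in all day 2 libraries. The 7 NK cell markers summed to 47.3 to 60.9 CPM on day 0, to 56.5 CPM in LIP 96 on day 2, mostly from Gzma, and to 4.78 to 18.1 CPM in the other day 2 libraries. The 12 pancreatic acinar markers summed to at most 1.18 CPM in the CTL libraries of day 0, to 0.689, 24.1 and 6.55 CPM in the LIP libraries of day 0, and to 3.67 to 10.4 CPM on day 2.

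Levels below are CPM scaled by the trimmed mean of M-values (TMM) over the 12 libraries. Per kilobase of transcript, Nr1d2 was the member with the highest level in fresh CTL cells, at 10.7 ± 0.894 CPM per kb (SD, n = 3), followed by Cry1 at 10.1 ± 0.469, Clock at 8.96 ± 0.197 and Per1 at 8.95 ± 0.858 CPM per kb. Tef (8.36 CPM per kb), Dbp (6.68) and Cry2 (6.20) came next, then Per2 (1.82) and Nr1d1 (1.79), and Per3 was lowest at 0.622 CPM per kb. In this order, neighbours overlapped between libraries except Cry1 and Clock, Cry2 and Per2, and Nr1d1 and Per3. On day 2, Per1 headed the order in both groups, at 12.6 ± 1.69 CPM per kb in CTL and 10.2 ± 1.04 in LIP, and Nr1d1 was last, at 0.335 ± 0.103 and 0.153 ± 0.0448 CPM per kb. Per1 and Cry1 overlapped in the LIP group on day 2 but not in the CTL group.

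**Figure D1:**
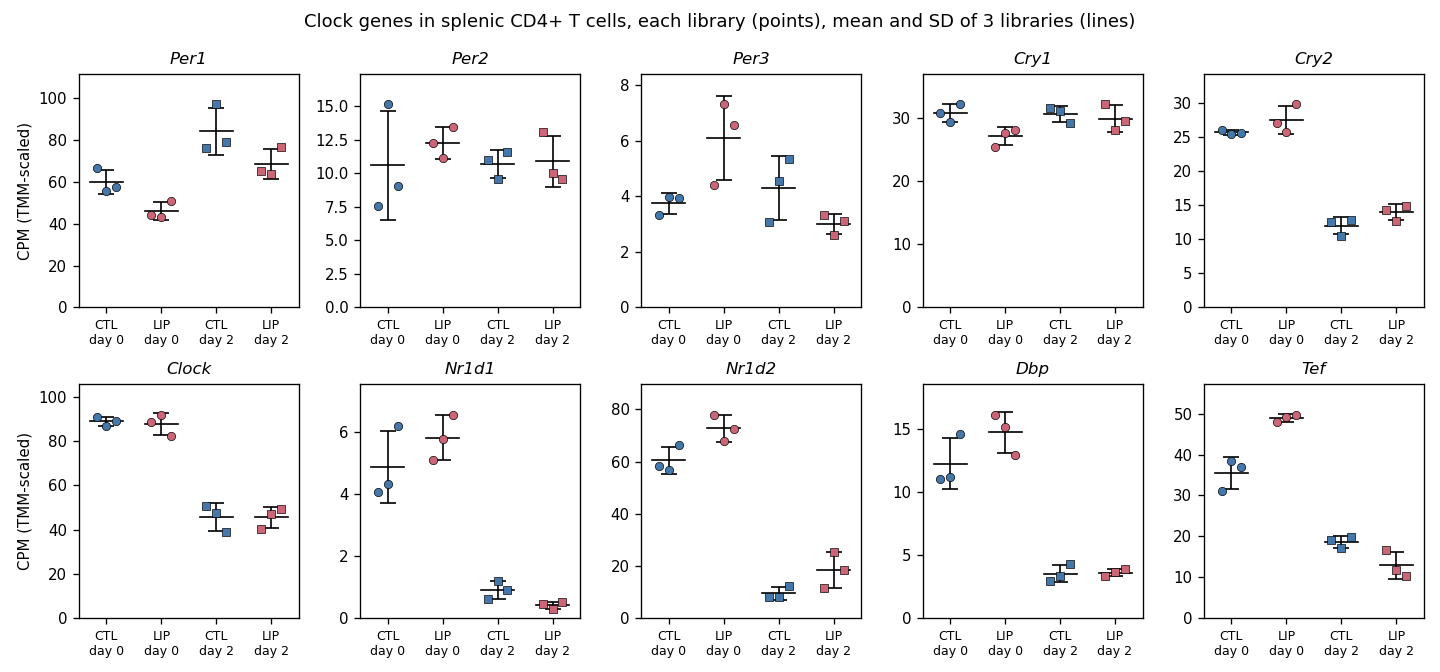
CPM (TMM-scaled, linear axis from 0) of the 10 clock genes in each of the 12 libraries, with circles for day 0, squares for day 2, blue for CTL and red for LIP, and with the mean and SD of 3 libraries as lines. Nr1d2 lay between 56.7 and 77.9 CPM on day 0 and between 8.00 and 25.5 CPM on day 2, and Cry1 between 25.5 and 32.2 CPM in all libraries.

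The study compared the LIP and CTL groups to find transcripts that differ in T cells of mice with periodontitis, and the clock genes were first compared in fresh cells on day 0. None of the 10 members passed an adjusted p under 0.05 with edgeR, against 0.427% of the 14064 genes tested. An unadjusted p under 0.05 was reached by 4 members (Per1, Per3, Tef and Nr1d2), against 13.9% of all genes, and DESeq2 called 1 member, Tef, against 1.46% of all genes. The groups did not overlap for 5 members, with Per3, Tef and Nr1d2 higher and Per1 and Cry1 lower in the LIP group, where 9.26% and 9.85% of all genes did not overlap in the respective direction. The median log2 fold change of the members was 0.23 (0.13 without CTL 88 and 0.15 without LIP 94), and that of all genes was 0.0088. Without CTL 94 edgeR called 658 of 14343 genes, and without CTL 89 it called 96 of 14372. Without the filter on low counts it called 645 of 25644. In bulk RNA, fewer cells of a type and less RNA per cell cannot be told apart.

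Among the genes of the negative limb, Per1 (chr11:68986035-69002300 of GRCm39), which encodes the period protein that responds to acute signals, was at 66.4, 55.7 and 57.5 CPM in the CTL libraries and at 44.0, 43.1 and 50.9 CPM in the LIP libraries on day 0. Every CTL library was above every LIP library, with a log2 fold change of −0.37 (SE 0.10, 95% confidence interval −0.59 to −0.16, adjusted p = 0.142). Without the filter on low counts this difference of Per1 had an adjusted p of 0.0181, and over the other scalings, filters and fits it ran up to 0.512. Per3 (chr4:151081373-151129140), a period paralogue that is not required for the core rhythm, was at 3.31, 3.97 and 3.95 CPM in CTL and at 4.41, 7.32 and 6.55 CPM in LIP. The LIP libraries were all higher, by a log2 fold change of 0.70 (SE 0.25, adjusted p = 0.245), at a level where few counts stood behind each value. The pancreatic acinar sums of these LIP libraries, 0.689, 24.1 and 6.55 CPM, had the same order as their Per3 values. The part of acinar cells in the Per3 values was not tested. Per2 (chr1:91343700-91387069) spread from 7.53 to 15.2 CPM within the CTL group alone, which covered all 3 LIP libraries (11.1 to 13.5 CPM). Its log2 fold change was 0.21, with an interval from −0.29 to 0.70, and it ran from 0.016 without CTL 88 to 0.56 without CTL 89.

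The cryptochromes, which are the main repressors of CLOCK and BMAL1, differed little between the groups on day 0. Cry1 (chr10:84967560-85021252) was at 29.4 to 32.2 CPM in CTL and at 25.5 to 28.2 CPM in LIP, and these ranges did not overlap. Its log2 fold change was −0.18 (interval −0.39 to 0.04, adjusted p = 0.453). Cry2 (chr2:92233894-92264474) was at 25.4 to 26.1 CPM in CTL and at 25.7 to 29.8 CPM in LIP, a log2 fold change of 0.11 (interval −0.12 to 0.33), and 0.046 to 0.15 over the fits without 1 library. Clock (chr5:76342860-76452846), the activator, was at 86.8 to 90.7 CPM in CTL and 82.0 to 91.7 CPM in LIP. The interval of its log2 fold change, −0.18 to 0.14, was the narrowest of the members.

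The 2 REV-ERB genes were both measured higher in LIP on average. Nr1d2 (chr14:4230545-4266624) was at 58.3, 56.7 and 66.2 CPM in the CTL libraries and at 77.9, 67.7 and 72.4 CPM in the LIP libraries. The groups stood apart by a narrow gap, with a log2 fold change of 0.27 (SE 0.09, interval 0.08 to 0.47, adjusted p = 0.213), and without CTL 94 the adjusted p was 0.0488. Nr1d1 (chr11:98658752-98666188) was at 4.07 to 6.18 CPM in CTL and at 5.10 to 6.55 CPM in LIP, overlapping ranges with a log2 fold change of 0.26 (interval −0.26 to 0.78), and 0.15 to 0.47 over the fits without 1 library. Nr1d1 overlaps the gene Thra over 3173 bases on the opposite strand, and the strand setting of the counting is not given in the sources used here. For Thra, the thyroid hormone receptor α gene, the log2 fold change was 0.12 (adjusted p = 0.704).

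Among the output factors, Tef (chr15:81686622-81711064) showed the smallest adjusted p of the members on day 0. It was at 31.0, 38.4 and 37.0 CPM in the CTL libraries and at 48.0, 49.2 and 49.7 CPM in the LIP libraries. The 3 LIP libraries lay within 2 CPM of each other and above all CTL libraries. The log2 fold change was 0.47 (SE 0.10, interval 0.26 to 0.68), with an adjusted p of 0.0671 in edgeR and 0.0220 in DESeq2. With CTL 94 left out the adjusted p was 0.0223, with CTL 89 left out 0.0445, and over the scalings, filters and fits tried it ran from 0.0013 to 0.472. Dbp (chr7:45354512-45359627), a classical clock output driven by E-boxes, was at 11.0, 11.2 and 14.6 CPM in CTL and at 16.1, 15.2 and 12.96 CPM in LIP. These ranges overlapped, and the log2 fold change was 0.27 (interval −0.08 to 0.62), and 0.20 to 0.41 over the fits without 1 library.

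**Figure D2:**
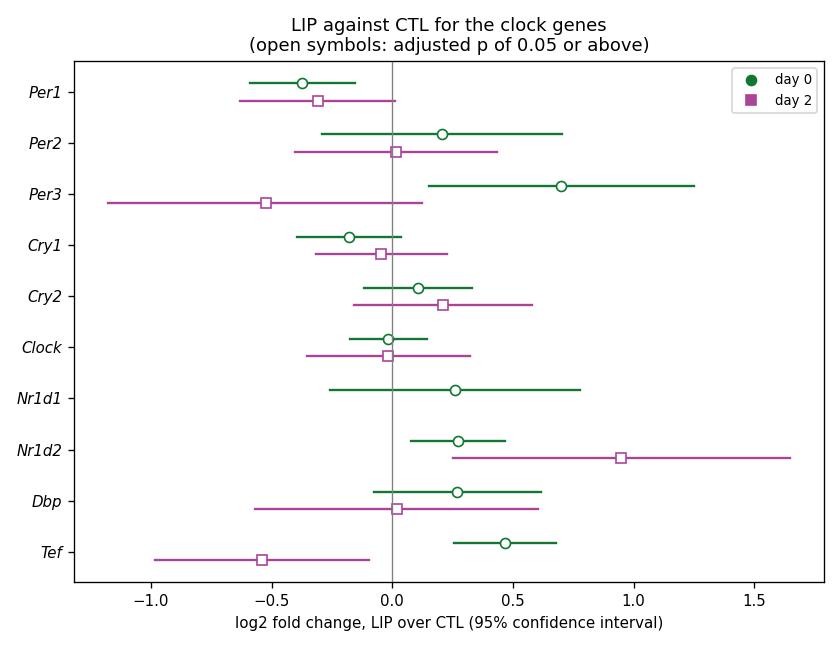
Log2 fold change of LIP over CTL (horizontal axis) for the clock genes on day 0 (circles) and day 2 (squares), with bars for the 95% confidence interval and open symbols where the adjusted p was 0.05 or above. All symbols are open, Tef lay at 0.47 on day 0 and at −0.54 on day 2, and Nr1d1 has no day 2 value because its counts were too low to be tested.

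After stimulation, the LIP and CTL groups were compared again on day 2. None of the 9 members that passed the filter on low counts had an adjusted p under 0.05 with edgeR, and none did with DESeq2. The share of all 14041 genes called was 0% with edgeR and 3.48% with DESeq2. Tef and Nr1d2 had an unadjusted p under 0.05, against 16.5% of all genes, and among the members tested the groups did not overlap for 1, Tef, against 10.5% of all genes lower in LIP. The median log2 fold change was −0.016 for the members and −0.0058 for all genes. Without LIP 90 edgeR called 2014 of 14453 genes. It called 775 of 15475 in the fit of all 12 libraries and 662 of 25712 without the filter on low counts.

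Tef was at 19.1, 17.1 and 19.8 CPM in the CTL libraries and at 16.7, 11.8 and 10.2 CPM in the LIP libraries on day 2. The LIP libraries were all lower, although LIP 90 came within 1 CPM of the CTL group. The log2 fold change was −0.54 (SE 0.20, interval −0.98 to −0.10, adjusted p = 0.229), and without LIP 90 it was −0.74 with an adjusted p of 0.0166. Nr1d2 was at 8.24, 8.00 and 12.3 CPM in CTL and at 11.5, 25.5 and 18.5 CPM in LIP. LIP 90 fell inside the CTL range and the other 2 LIP libraries above it. The log2 fold change was 0.95 (SE 0.31, interval 0.25 to 1.65, adjusted p = 0.198), and it was 1.23 with an adjusted p of 0.0072 without LIP 90, and 0.96 with 0.0399 when all 12 libraries were fitted together. Over the scalings, filters and fits tried, the adjusted p of Nr1d2 ran from 0.0220 to 0.204, and over the fits without 1 library up to 0.574. The 3 day 2 libraries with the most Nr1d2, LIP 96, LIP 97 and CTL 97, were also the 3 with the most B cell marker RNA (27.7, 27.6 and 16.8 CPM) and the most NK cell marker RNA (56.5, 15.03 and 18.1 CPM, against 4.78 to 5.71 CPM in the others). The part of either cell type in the Nr1d2 values was not tested.

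Of the period genes on day 2, Per1 was at 76.2 to 97.1 CPM in CTL and at 63.6 to 76.4 CPM in LIP, a log2 fold change of −0.31 (interval −0.63 to 0.01, adjusted p = 0.321) on ranges that overlapped slightly. Over the fits without 1 library the value for Per1 was −0.39 to −0.19. Per3 was at 3.06 to 5.34 CPM in CTL and at 2.62 to 3.31 CPM in LIP, with a log2 fold change of −0.52 (interval −1.18 to 0.12), and −0.72 to −0.34 over the fits without 1 library. Per2 lay at 9.55 to 11.6 CPM in CTL and at 9.59 to 13.1 CPM in LIP. Both cryptochromes, Clock and Dbp had overlapping groups and log2 fold changes between −0.04 and 0.21. Nr1d1 was counted 6, 10 and 8 times in CTL (0.63, 1.19 and 0.91 CPM) and 5, 3 and 4 times in LIP (0.45, 0.28 and 0.52 CPM), too few to pass the filter on low counts. The CTL libraries were all higher. In the fits that kept Nr1d1, its log2 fold change was −1.10 without a filter (adjusted p = 0.501) and −1.12 when all 12 libraries were fitted together (adjusted p = 0.142).

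Whether the LIP difference changed between the days was tested with the interaction of group and day over all 12 libraries. No member passed an adjusted p under 0.05, against 0.0517% of the 15475 genes tested. Per3, Tef and Nr1d1 had an unadjusted p under 0.05, against 15.9% of all genes, and DESeq2 called Tef alone (adjusted p = 0.0086), against 3.43% of all genes. For Tef, which was higher in LIP on day 0 and lower on day 2, the difference of the log2 fold changes was −0.98 (SE 0.22, interval −1.46 to −0.51, adjusted p = 0.0839), and without the filter on low counts the adjusted p was 0.0022. Leaving out LIP 90 gave −1.21 with an adjusted p of 5.7e-04, and the value for Nr1d2 then was 0.96 with an adjusted p of 0.0183, where with all libraries it was 0.69 (adjusted p = 0.317) and without LIP 96 it was 0.38 (adjusted p = 0.614). Without LIP 90 edgeR called 1596 of 15823 genes in the interaction, and without the filter on low counts it called 815 of 28221. Per3 gave −1.21 (SE 0.38, adjusted p = 0.140) and Nr1d1 −1.38 (SE 0.50, adjusted p = 0.191), the latter resting on the few day 2 counts given above.

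Most of the clock genes differed between stimulated and fresh cells, as did most genes. Day 2 was compared with day 0 within each group, in comparisons that share no libraries with one another but do share them with the LIP against CTL comparisons. In the CTL group, 7 of 10 members passed the test, where 70.8% of the 14621 genes tested did, with Per1 higher (36.2% of all genes) and Cry2, Clock, Nr1d1, Nr1d2, Dbp and Tef lower (34.7%). In the LIP group, 8 of 10 members passed, where 71.5% of 14310 genes did, namely the same 7 in the same direction and Per3, which was lower (36.1% of all genes were higher and 35.4% lower). The median log2 fold change of the members was −0.96 in CTL and −1.01 in LIP, and that of all genes was −0.013 and 0.0083. Under upper-quartile scaling the median of all genes moved to −0.28 in CTL and −0.29 in LIP. Per1 then did not pass, at 0.20 (adjusted p = 0.161) and 0.26 (adjusted p = 0.0865), or 0.48 and 0.55 relative to that median, and the calls became 0 higher and 7 lower in CTL and 0 higher and 8 lower in LIP. Day, culture and library preparation cannot be told apart in these comparisons. The 11 myeloid markers summed to 6.14 to 16.8 CPM on day 0 and to 2.51 to 5.15 CPM on day 2, and the NK cell markers were lower on day 2 in all libraries but LIP 96. The acinar markers were higher on day 2 in every CTL library, and the B cell markers, at 1.32 to 3.55 CPM on day 0, were higher in all day 2 libraries but LIP 90. The part of these cell types in the stimulation values was not tested.

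The REV-ERB genes fell in both groups. Nr1d2 dropped from 56.7 to 66.2 CPM in fresh CTL cells to 8.00 to 12.3 CPM in stimulated ones, a log2 fold change of −2.69 (SE 0.16) or 6.44-fold lower, with an adjusted p of 1.3e-07. In the LIP group it went from 67.7 to 77.9 CPM to 11.5 to 25.5 CPM, a log2 fold change of −1.99 (SE 0.25, adjusted p = 1.5e-04) or 3.97-fold lower. Nr1d1 went from 4.07, 4.33 and 6.18 CPM to 0.63, 1.19 and 0.91 CPM in CTL, a log2 fold change of −2.43 (SE 0.36, adjusted p = 9.6e-05). In LIP it went from 5.10, 5.77 and 6.55 CPM to 0.45, 0.28 and 0.52 CPM, a log2 fold change of −3.80 (SE 0.32, adjusted p = 1.6e-05). Its partner on the other strand, Thra, also fell, by 1.04 in CTL and by 1.28 in LIP on the log2 scale (adjusted p = 1.7e-04 and 2.0e-04).

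The output factors fell with them. Dbp went from 11.0 to 14.6 CPM to 2.96 to 4.32 CPM in CTL and from 12.96 to 16.1 CPM to 3.31 to 3.89 CPM in LIP. Its log2 fold changes were −1.81 (SE 0.23, adjusted p = 3.7e-05) and −2.04 (SE 0.18, adjusted p = 2.0e-05). Tef fell by 0.95 on the log2 scale in CTL (SE 0.13, adjusted p = 5.7e-05) and by 1.93 in LIP (SE 0.17, adjusted p = 2.5e-05), the difference between these being the interaction given above. Of the core feedback loop, Clock went from 86.8 to 90.7 CPM to 38.7 to 50.6 CPM in CTL and from 82.0 to 91.7 CPM to 40.0 to 49.2 CPM in LIP. The 2 groups gave near equal log2 fold changes for Clock, −0.98 (SE 0.12) and −0.96 (SE 0.11), and an interaction of 0.02 (interval −0.33 to 0.36).

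The negative limb split. Cry2 fell from 25.4 to 26.1 CPM to 10.5 to 12.8 CPM in CTL and from 25.7 to 29.8 CPM to 12.7 to 14.9 CPM in LIP, with log2 fold changes of −1.12 (SE 0.13) and −0.99 (SE 0.13). Cry1 did not pass in either group, with log2 fold changes of −0.03 (interval −0.27 to 0.21) and 0.13 (interval −0.13 to 0.39). All 12 libraries of Cry1 lay between 25.5 and 32.2 CPM. Per1 was the only member that passed upward, from 55.7 to 66.4 CPM to 76.2 to 97.1 CPM in CTL (log2 fold change 0.47, SE 0.12, adjusted p = 0.0051) and from 43.1 to 50.9 CPM to 63.6 to 76.4 CPM in LIP (0.56, SE 0.12, adjusted p = 0.0029), with the exception of the scaling given above. Per2 did not pass, with intervals of −0.55 to 0.52 in CTL and −0.59 to 0.22 in LIP. Per3 fell by 1.03 in LIP on the log2 scale (SE 0.25, adjusted p = 0.0062), whereas its value in CTL was 0.17 (interval −0.45 to 0.80). That difference is the interaction of −1.21, which did not pass after adjustment.

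**Figure D3:**
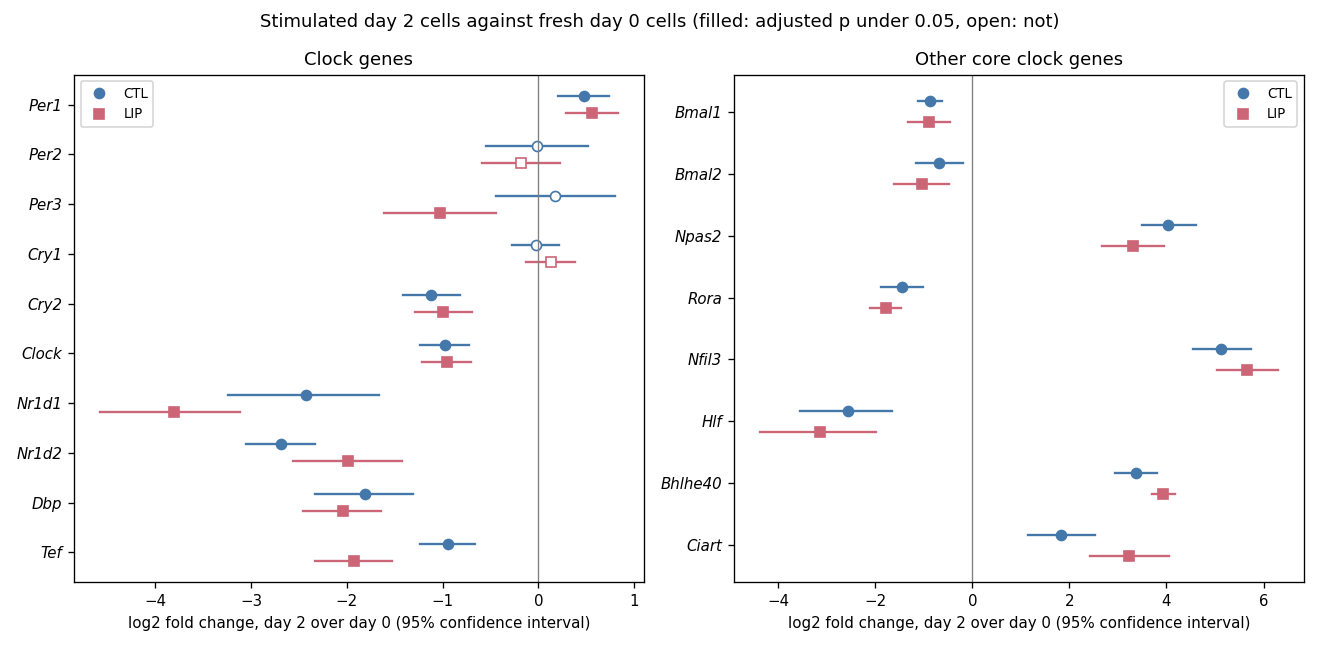
Log2 fold change of day 2 over day 0 (horizontal axis) in CTL (blue circles) and LIP (red squares) for the clock genes and the other core clock genes, with 95% confidence intervals and filled symbols where the adjusted p was under 0.05. Nr1d1 and Nr1d2 lie at or below −1.99 in both groups, while Per1 is to the right of 0 (not called under upper-quartile scaling) and Cry1 is close to 0. Bhlhe41 is left out because the LIP day 0 libraries held 0 counts.

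The remaining core clock genes, a list of 10, were examined in the same fits. On day 0, 8 were tested and none passed in LIP against CTL with either tool. Only Rora had an unadjusted p under 0.05 (13.9% of all genes), with a log2 fold change of 0.35 (adjusted p = 0.356). It passed without CTL 94 (0.54, adjusted p = 0.0386) and without the filter on low counts (adjusted p = 0.0108), and without CTL 89 it was 0.16. The fits in which Rora passed called 658 of 14343 and 645 of 25644 genes, in this order. Bmal1, the partner of Clock, was at 31.5 to 33.7 CPM in CTL and 31.4 to 35.0 CPM in LIP, with an interval of −0.21 to 0.20. Bmal2, Npas2, Nfil3, Hlf, Bhlhe40 and Ciart had overlapping groups and log2 fold changes between −0.84 and 0.31. Over the fits without 1 library Ciart ran from −1.35 to −0.47, Nfil3 from 0.15 to 0.41 and Bmal2 from 0.12 to 0.44. Rorb was at 0 counts in all but 2 libraries.

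On day 2, 8 of these genes were tested and none passed with edgeR, while 4 had an unadjusted p under 0.05 (16.5% of all genes) and DESeq2 called 2, Bhlhe40 and Nfil3 (3.48% of all genes). Both also passed in edgeR without the filter on low counts (adjusted p = 0.0217 and 0.0120) and in the fit of all 12 libraries (0.0427 and 0.0423). Those fits called 662 of 25712 and 775 of 15475 genes. Bhlhe40, which encodes the repressor DEC1 that competes for E-boxes, was at 175, 166 and 124 CPM in CTL and at 236, 225 and 240 CPM in LIP. The LIP libraries were all higher, with a log2 fold change of 0.58 (SE 0.15, adjusted p = 0.142 in edgeR and 0.0199 in DESeq2). Nfil3, the D-box repressor, was at 96.2, 73.7 and 52.7 CPM in CTL and at 99.6, 175 and 119.97 CPM in LIP. Its groups did not overlap either (10.9% of all genes were apart and higher), with a log2 fold change of 0.81 (SE 0.26, adjusted p = 0.194). Ciart was also apart and higher (0.52, adjusted p = 0.290), and Npas2 was lower by value with overlapping groups (−0.69, adjusted p = 0.194). Without LIP 90, Bhlhe40 (adjusted p = 0.0274), Nfil3 (0.0210) and Npas2 (0.0298) passed in edgeR, where 2014 of 14453 genes did. In the interaction none of 9 passed with either tool (0.0517% of all genes in edgeR and 3.43% in DESeq2), and 2 (Ciart and Bhlhe40) had an unadjusted p under 0.05 (15.9% of all genes).

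With stimulation, all 9 tested genes of this list passed in CTL and in LIP, where 70.8% and 71.5% of all genes did. Nfil3 rose from at most 2.37 CPM to at least 52.7 CPM in CTL, a log2 fold change of 5.13 (SE 0.27), and by 5.66 (SE 0.27) in LIP. Npas2, a paralogue of Clock, rose by 4.04 in CTL and by 3.30 in LIP, Bhlhe40 by 3.37 and 3.94, and Ciart by 1.83 and 3.22. Bhlhe41 (DEC2) held 1, 1 and 0 counts in fresh CTL cells and 30, 43 and 27 in stimulated ones, and in LIP, where day 0 libraries were all at 0, it was at least 7.92-fold higher against the highest floor of 3 counts per library (0.422 CPM). Bmal1 fell by 0.87 and 0.89, Bmal2 by 0.68 and 1.05, Rora by 1.46 and 1.78 and Hlf by 2.57 and 3.14 on the log2 scale. Over the fits without 1 library, the log2 fold change of Hlf in LIP ran from −4.22 (without LIP 90) to −2.64. The day 2 counts of Hlf were too low to be tested in LIP against CTL. The call of Bmal2 in CTL was lost without CTL 89 (adjusted p = 0.0660) or without CTL 92 (0.0574).

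**Figure D4:**
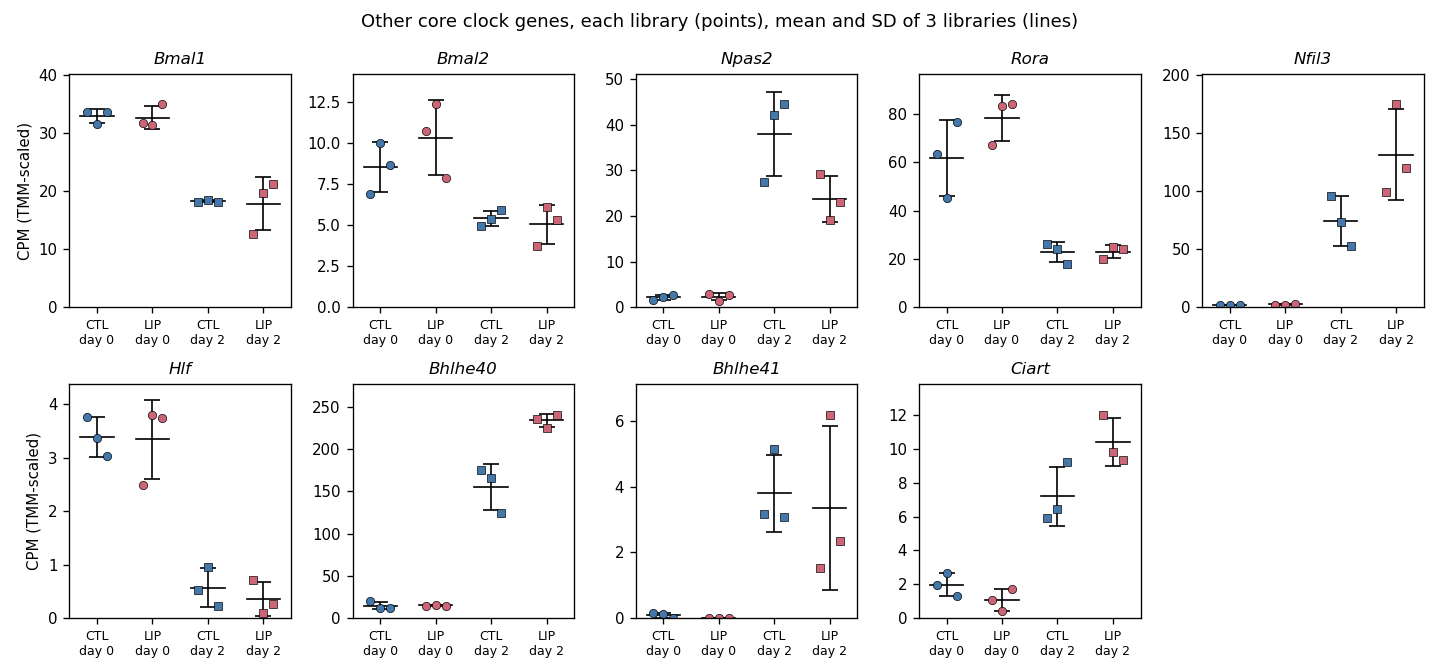
CPM (TMM-scaled, linear axis from 0) of 9 other core clock genes in each library, drawn as circles for day 0 and squares for day 2, blue for CTL and red for LIP, with the mean and SD of 3 libraries. Nfil3, Npas2, Bhlhe40 and Bhlhe41 are near the bottom of their axes on day 0, and Bhlhe40 on day 2 lies at 124 to 175 CPM in CTL and at 225 to 240 CPM in LIP.

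Of 19 genes for kinases, ubiquitin ligases and other regulators of the clock proteins, none passed in LIP against CTL with edgeR on day 0 or day 2. An unadjusted p under 0.05 was reached by 4 of 19 tested on day 0, where 13.9% of all genes did, and by 3 of 18 on day 2, where 16.5% did. DESeq2 called 0 on day 0 (1.46% of all genes) and 1 on day 2 (3.48%), Timeless, which was higher in LIP by 0.63 on the log2 scale (adjusted p = 0.0229). In edgeR with all libraries kept, Timeless passed without the filter on low counts on day 0 (0.0242) and day 2 (0.0180) and in the fit of all 12 libraries on day 2 (0.0167), and Nampt passed on day 2 in the same fits (0.0234 and 0.0403). Without the filter edgeR called 645 of 25644 genes on day 0 and 662 of 25712 on day 2. The fit of all 12 libraries called 775 of 15475 on day 2. Without LIP 90, edgeR called Timeless (0.73, adjusted p = 0.0106) and Ddb1 (−0.50, adjusted p = 0.0144) on day 2, and without CTL 94 it called Timeless (0.50, adjusted p = 0.0345) and Ncor1 (−0.31, adjusted p = 0.0363) on day 0. Of all genes, 2014 of 14453 were called without LIP 90 and 658 of 14343 without CTL 94. None of the 19 passed in the interaction with edgeR, 4 had an unadjusted p under 0.05 (15.9% of all genes), and DESeq2 called 1 (3.43% of all genes), Nono (0.37, adjusted p = 0.0352). Without LIP 90, edgeR called Ddb1 there (−0.40, adjusted p = 0.0395), in a fit that called 1596 of 15823 genes. In each stimulation comparison 11 rose and 4 fell, where 36.2% of all genes rose and 34.7% fell in CTL and 36.1% and 35.4% did in LIP. Under upper-quartile scaling 15 passed in CTL, not all of them the same genes, and 13 in LIP. The largest rises were those of Timeless (2.34 in CTL and 2.51 in LIP on the log2 scale), Nampt (1.94 and 2.53), which makes a precursor of the NAD+ used by SIRT1, and Ddb1 (1.60 and 1.45). Sirt1, the deacetylase, fell by 0.94 and 0.75. Fbxl21, a ubiquitin ligase subunit for cryptochromes, was at 1.20 to 2.76 CPM in fresh CTL cells and at 0 in all stimulated ones, at least 5.09-fold lower. In LIP its fitted log2 fold change was −5.34 (SE 0.59). That value is not comparable with the bound for CTL, where the fitted log2 fold change was −6.93. Ncor1, a co-repressor of the REV-ERB receptors, fell by 0.67 in CTL and by 0.47 in LIP.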

How the data were processed

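Transcripts of CD4+ T cells from the spleen were counted in 12 libraries, 3 for each of 4 groups, and the sample titles gave the groups. Per the study's methods, the authors ran FastQC 0.11.9, trimmed reads with Trimmomatic 0.36 (0.38 in the submitters' processing notes), mapped them to GRCm39 with HISAT2 2.1.0 and estimated counts with RSEM 1.3.0 and Bowtie2. The libraries were depleted of ribosomal RNA and directional. The authors deposited expected counts per gene without normalization, and 2 tables of their comparisons that hold a normalized signal per library, log2 fold changes with mean log2 CPM, and p-values with false discovery rates. Only the symbols of those tables were used here, and 2 of their columns of libraries outside the labelled samples were not used.

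Expected counts, of which 73267 values were not whole, were rounded. Comparisons used edgeR 4.0.16 in R 4.3.3 (filterByExpr, TMM, quasi-likelihood test, Benjamini-Hochberg adjustment over all genes tested, threshold 0.05), on the 6 libraries of a comparison or on all 12 for the interaction. Standard errors were the unshrunk log2 fold change over the root of the F statistic. Alternatives were RLE and upper-quartile scaling, DESeq2 1.42.0, other filters on low counts, 1 fit of all 12 libraries, each library left out in turn, and, for the interaction and chosen after seeing the data, the replicate number as a block. Libraries of a group differed by more than sampling noise, so none was counted as a duplicate. Of 92 listed genes, 78 were matched by deposited symbol and the others by GENCODE release 39 for the mouse, which also gave positions and transcript lengths. A floor of 3 counts was 0.361 to 0.452 CPM (TMM-scaled) in the libraries of day 0 and 0.269 to 0.389 CPM on day 2, and covers counting error only.

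The genes named are the 10 members, the tested or detected genes of the other core clock list, regulators that passed in LIP against CTL or the interaction (none in the edgeR fits described above; those called in an alternative were named after their values were seen), the 3 highest and 3 lowest regulators that passed with stimulation, and Thra. Some genes of the lists are not reported here and were left out of the lists' counts and sums. Members and lists were chosen with earlier results of these data known. The scripts were tested on simulated data. With a smooth trend of dispersions the share of false calls was near the threshold, and with gene-wise dispersions it was above it. Figures were drawn with matplotlib 3.10.9 in Python 3.11.15.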

Additional observations from a re-analysis of the deposited data

Results flagged for a closer look

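Tef was singled out because the LIP libraries were all above the CTL libraries on day 0 and all below them on day 2. The p-values below come from the same 12 libraries as that pattern and are not separate support for it. How many of all genes show the pattern was not counted. The LIP effect on day 2 minus that on day 0 was −0.98 on the log2 scale, with an adjusted p of 0.0839 in the edgeR interaction test. It passed in DESeq2 (adjusted p = 0.0086), in edgeR without the filter on low counts (0.0022) and in edgeR without LIP 90 (5.7e-04). These fits called 531 of 15475, 815 of 28221 and 1596 of 15823 genes. Tef also passed in edgeR with the replicate number as a block (0.0113), a fit with 1 residual degree of freedom that called 550 of 15475 genes. It did not pass under the other scalings or the stricter filter (adjusted p up to 0.0856) or in the other 11 fits that left out 1 library (up to 0.212).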

How the results depend on the processing

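The counts of members called with stimulation stayed within 6 to 7 in CTL and 7 to 8 in LIP under every alternative run. Against 0 calls on day 0, DESeq2 called 1 member and the fit without a filter on low counts 2. Against 0 on day 2, the fit without a filter and the fit of all 12 libraries each called 1, and against 0 in the interaction DESeq2 and the fit without a filter each called 1. Leaving out 1 library gave 0 to 2 members called on day 0 (2 without CTL 94, 1 without CTL 89), 0 to 2 on day 2 and 0 to 2 in the interaction (2 without LIP 90 in both), 7 in CTL and 8 in LIP with stimulation. Without LIP 90, 2014 genes were called on day 2 against 0 with it, and 1596 in the interaction against 8 with it. DESeq2 called 206 genes on day 0, 489 on day 2 and 531 in the interaction, where edgeR called 60, 0 and 8, and edgeR without a filter called 645, 662 and 815. One fit of all 12 libraries called 12 genes on day 0 and 775 on day 2. The cause of these differences was not tested.

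The sign of small, uncalled log2 fold changes changed as follows. Upper-quartile scaling gave Bmal1 0.0053 on day 0, Rora −0.011 on day 2, Per3 −0.10 with stimulation in CTL, Cry1 −0.18 with stimulation in LIP and Clock −0.016 in the interaction. Without a filter, Bmal1 was 0.0033 on day 0, Clock 0.020 and the median of the members 0.0067 on day 2, and Per2 0.030 and Cry1 0.015 with stimulation in CTL. With at least 10 counts in every library, Rora was −0.0085 on day 2 and Clock −0.014 in the interaction. In 1 fit of all 12 libraries, Per2 was 0.0059 with stimulation in CTL. Upper-quartile scaling also put Cry1 in CTL (−0.30) and Per2 in LIP (−0.49) past the threshold with stimulation. Over the fits that left out 1 library, on day 0 Clock ran from −0.051 to 0.028, Bmal1 ran from −0.056 to 0.025, Npas2 ran from −0.13 to 0.35, Hlf ran from −0.11 to 0.16, Bhlhe40 ran from −0.086 to 0.29. On day 2 the median of the members ran from −0.075 to 0.013, Per2 ran from −0.11 to 0.10, Cry1 ran from −0.075 to 0.013, Dbp ran from −0.10 to 0.19, Clock ran from −0.12 to 0.094, Bmal1 ran from −0.18 to 0.18, Bmal2 ran from −0.26 to 0.094, Rora ran from −0.14 to 0.12, Bhlhe41 ran from −0.99 to 0.22. With stimulation in CTL Per2 ran from −0.20 to 0.34, Per3 ran from −0.0037 to 0.39, Cry1 ran from −0.066 to 0.023. In the interaction Per1 ran from −0.0037 to 0.20, Per2 ran from −0.53 to 0.0027, Clock ran from −0.086 to 0.10, Bmal1 ran from −0.16 to 0.17.

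In the comparisons of 2 groups no paired analysis was possible because those groups share at most 1 replicate number. For the interaction, a fit with the replicate number as a block, chosen after seeing the data, left 1 residual degree of freedom. The labels do not say what a number marks, and the deviations of same-numbered libraries from their group means correlated at −0.055 to 0.10 over the 4 pairs. With this replicate block 550 genes and 1 member, Tef (−1.37, adjusted p = 0.0113), were called. Signs changed for the median of the members (0.0069), Cry2 (−0.0079), Dbp (0.022), Bmal1 (0.17), Rora (0.29), Bhlhe41 (−0.39) and Ciart (−0.38), none of them called. With 3 libraries a group, values below 10 CPM rest on few counts (Per3 and Nr1d1 in all libraries, and Per2, Dbp and Nr1d2 in some), the time of day of sampling is not given in the sources used here, and CPM is a share of the RNA of the cells, so that a change of total RNA per cell would not appear.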
